A study of Mus musculus with 12 samples.

Results

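The genes described here are the 176 genes on mouse chromosome 9 that lie within 10 Mb of *Isl2* and are expressed in the embryonic ventral spinal cord. *Isl2* itself spans chr9:55538677-55547667 (GRCm38), and a gene was taken when its midpoint lay within 10 Mb of the *Isl2* midpoint and its deposited TPM averaged at least 0.5 over the 12 libraries. Of 442 genes annotated in that window, 258 fell under 0.5 TPM. Another 8 were left out by name, namely *Isl2*, *Megf11*, *Neo1*, *Crabp1*, *Hcn4*, *Chrna3*, *Chrna5* and *Chrnb4*. The 176 members are part of 16736 genes tested and of 45777 genes listed. By the mean level, *Gm20346* at 0.513 TPM, *Kbtbd13* at 0.521 and *Gm39355* at 0.566 were the last to enter. *Cilp* at 0.475 TPM, *Cyp11a1* at 0.465 and *Tmprss5* at 0.462 just missed it. By distance, *Dscaml1* at 9.95 Mb, *Spg21* at 9.93 Mb and *Mtfmt* at 9.90 Mb were the farthest members. *Plekho2* at 10.02 Mb, *Pif1* at 10.05 Mb and *Rbpms2* at 10.10 Mb lay just beyond. The members were thus chosen by position and by the mean level, the only measured value used, although the genotype differences of the region were known when it was picked.

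The study asked which transcripts depend on *Isl2*, a LIM-homeodomain transcription factor of postmitotic motor neurons (MNs). Ventral spinal cords of E12.5 mouse embryos were trimmed around the fluorescence of the *Hb9::GFP* reporter, which marks MNs, and their total RNA was sequenced after ribosomal RNA removal. There were 4 groups of 3 libraries, brachial and lumbar cord of *Isl2* +/- embryos (heterozygotes, Het) and brachial and lumbar cord of *Isl2* KO embryos. The null allele carries a neomycin cassette in place of *Isl2* exons, every control embryo carries one copy of it, and no wild-type group was analysed here. The design text names 3 animals per genotype, and the paper's list of sample sizes names 3 animals per group.

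Genes that lie close together on a chromosome are inherited together. Embryos sorted by their genotype at a targeted gene are therefore also sorted, in part, by which copy of the surrounding segment they received. The segment around *Isl2* holds genes of unrelated function: enzymes of glycolysis and of the mitochondrion, adhesion receptors of axons, DNA-damage and cell-cycle genes, ribosomal proteins and components of protein turnover. The heterozygotes carry both copies of the segment and the KO embryos, near *Isl2*, the targeted copy on both homologues, so that in these groups the loss of *Isl2* and the segment inherited with it cannot be told apart. Whether the copies differ in strain of origin is not given in the sources used here.

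*Isl2* transcripts were lower in the *Isl2* KO at both levels without being lost. After rescaling the libraries to a common level, brachial heterozygotes had 8.69, 8.29 and 9.68 TPM and brachial KO 6.01, 7.25 and 4.46. Lumbar heterozygotes had 10.3, 8.40 and 9.39 TPM and lumbar KO 7.30, 6.51 and 8.21. The groups did not overlap at either level. The log2 fold change was −0.61 (SE 0.18) at brachial and −0.35 (SE 0.13) at lumbar levels. Neither passed the adjusted test of limma (adjusted p = 0.360 and 0.999).

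The libraries held 4.48 to 6.64 Gb of aligned sequence, the least in brachial KO replicate 3. *Xist* and Y-linked transcripts marked 7 libraries as male and 5 as female. The brachial heterozygotes held 2 males and 1 female and the lumbar heterozygotes 1 male and 2 females. The same 3 embryos thus cannot have given both sets, which goes against 3 animals for that genotype but not against 3 per group. Where embryos are shared between the levels, p-values of the genotype difference over both levels together are too small. The summed level of 8 MN markers was 507 to 522 TPM in brachial heterozygotes and 454 to 489 in brachial KO. At lumbar level it was 254 to 333 and 196 to 271 TPM, and 1 of the 8 was called lower there. *Prph*, which encodes the neuronal intermediate filament peripherin, was the highest of them at brachial level, with 295 to 318 TPM in heterozygotes and 224 to 291 in KO, and had 44.0 to 76.4 and 30.9 to 40.4 TPM at lumbar level. The other 7 markers together had 200 to 211 and 198 to 231 TPM at brachial and 189 to 257 and 162 to 240 at lumbar level, with overlapping groups. The median log2 fold change of the 8 markers was 0.07 at brachial and −0.28 at lumbar level. Summed erythroid transcripts ranged from 1987 to 3442 TPM in brachial heterozygotes and from 2834 to 5836 in brachial KO. At lumbar level they ranged from 1994 to 3173 and from 2611 to 4202 TPM. The muscle determinant *Myod1* was listed at 0 in all 12 libraries. In such whole tissue, fewer cells of a type and less RNA per cell cannot be told apart, and the part of cell composition in the differences given here was not tested. By immunostaining at a later embryonic stage, the paper counted unchanged numbers of median and lateral motor column MNs at both levels.

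The members were mostly genes of broad use. Of the 176, 153 were protein-coding, 11 pseudogenes, 5 long non-coding RNAs, 4 small nucleolar RNAs (snoRNAs), 2 small nuclear RNAs and 1 a transfer RNA. Their mean TPM ran from 0.513 to 971 around a median of 14.3, with 15 at 100 or more and 12 under 1. *Pkm*, which encodes pyruvate kinase of glycolysis, was the highest at 971 TPM. The ribosomal protein genes *Rplp1* at 956 TPM and *Rpl4* at 848 TPM followed. *Tspan3*, a tetraspanin, stood at 267 TPM, the proteasome subunit gene *Psma4* at 264 and the respiratory chain gene *Cox5a* at 246. Of these 6, *Rplp1* (log2 fold change −0.26), *Psma4* (−0.31) and *Tspan3* (−0.20) had an unadjusted p under 0.05 in limma at brachial level, and none did at lumbar level. Of all genes tested, 13.8% did at brachial and 4.83% at lumbar level. Below, "proximal" marks the 71 members at lower coordinates than *Isl2* and "distal" the 105 at higher ones.

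Over both levels together, 3 members were downregulated in the *Isl2* KO at an adjusted p under 0.05 and none was upregulated. These were *Pts*, *Slc35f2* and *Layn*, all proximal, at 5.02, 1.75 and 4.48 Mb from *Isl2*. They made up 3 of 7 genes called in the whole transcriptome, a background of 0.0418% (0.0359% lower and 0.00598% higher). The others were *Uts2b*, *Ntf3* and *Gm22513*, also lower, and *Agmo*, which was higher, none of them on chromosome 9. The fit joined all 12 libraries with level as a covariate. With the filter at a mean of 1 TPM, 1 member was called, of 4 genes in all.

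*Pts* encodes 6-pyruvoyltetrahydropterin synthase, an enzyme in the synthesis of tetrahydrobiopterin, the cofactor of the aromatic amino acid hydroxylases and of nitric oxide synthases. It lies at chr9:50521617-50528716 on the minus strand. Brachial heterozygotes had 44.0, 45.5 and 48.2 TPM and brachial KO 28.8, 30.2 and 31.4. Lumbar heterozygotes had 40.7, 42.4 and 42.7 TPM and lumbar KO 32.9, 34.1 and 33.7. Every KO library lay below every heterozygote library of its level by more than the spread within either group. The log2 fold change was −0.61 (SE 0.07) at brachial, −0.32 (SE 0.07) at lumbar and −0.46 (SE 0.06) over both levels (limma, adjusted p = 0.0233). The adjusted p ranged from 0.00757 to 0.244 over 23 alternatives and was under 0.05 in 12 of them. The brachial difference exceeded the lumbar one by 0.29 on the log2 scale, a difference of unadjusted p = 0.00627 that did not pass adjustment over all genes (adjusted p = 0.812). Lumbar over brachial cord, *Pts* had a log2 fold change of 0.01 (SE 0.06).

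*Slc35f2* encodes a membrane transporter of solute carrier family 35 and lies at chr9:53771433-53818161 on the plus strand. Brachial heterozygotes had 8.92, 9.81 and 7.93 TPM and brachial KO 6.04, 7.10 and 5.21. Lumbar heterozygotes had 7.08, 6.09 and 6.24 TPM and lumbar KO 3.85, 3.25 and 3.85. Again no KO library reached a heterozygote library of its level. The log2 fold change was −0.54 (SE 0.15) at brachial, −0.81 (SE 0.14) at lumbar and −0.67 (SE 0.10) over both levels (limma, adjusted p = 0.0491). Over 23 alternatives the adjusted p ran from 0.0222 to 0.387, and 4 kept it under 0.05.

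*Layn* encodes layilin, a cell-surface C-type lectin that binds hyaluronan, and lies at chr9:51055023-51077209 on the minus strand. It was a rare transcript. Brachial heterozygotes had 1.72, 1.65 and 1.29 TPM and brachial KO 0.72, 0.61 and 0.53. Lumbar heterozygotes had 0.45, 0.52 and 0.66 TPM and lumbar KO 0.15, 0.17 and 0.23. The KO libraries were the lowest of each level, and the lumbar heterozygotes overlapped the brachial KO. The log2 fold change was −1.20 (SE 0.24) at brachial, −1.16 (SE 0.36) at lumbar and −1.18 (SE 0.18) over both levels (limma, adjusted p = 0.0491). Only 2 of 22 alternatives kept the adjusted p under 0.05 (range 0.00341 to 0.393). The deposited per-base coverage of *Layn* was 0.401 to 4.16 reads, against 34.5 to 70.9 for *Pts* and 4.35 to 12.1 for *Slc35f2*, so its values rest on few reads. *Layn* averaged 0.62 and 0.19 TPM in brachial and lumbar KO and entered the members through the heterozygotes, so that its lower calls partly restate the rule. The fitted scale, log2(TPM + 0.1), understates the change of a gene this low.

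The call of these 3 genes over both levels was sensitive to single libraries. None of the 3 passed when brachial heterozygote 1, 2 or 3, brachial KO 1 or 3, lumbar heterozygote 3 or lumbar KO 1 was left out, and none when the replicate number was a block or same-numbered libraries were averaged. In each of these settings 1 gene of all tested was called. The log2 fold changes themselves moved little, from −0.49 to −0.43 for *Pts*, from −0.74 to −0.62 for *Slc35f2* and from −1.24 to −1.13 for *Layn* as each library was left out in turn.

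The 3 downregulated members are shown with the sequence just before their start, because they are the members called over both levels together. The sequences are RefSeq promoter windows of GRCm38.p6, cut to the bases that precede both the RefSeq start and the start in the deposited tables, and read 5′ to 3′ on the strand of the gene. They cover chr9:50528717-50528906 for *Pts*, chr9:53771285-53771432 for *Slc35f2* and chr9:51077210-51077344 for *Layn*. Capitals would mark the homeodomain core motifs TAATTA and TAATTG on either strand.
Pts: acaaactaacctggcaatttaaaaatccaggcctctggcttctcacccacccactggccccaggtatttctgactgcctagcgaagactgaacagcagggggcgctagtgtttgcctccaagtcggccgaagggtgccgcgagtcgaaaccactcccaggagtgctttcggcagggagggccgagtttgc
Slc35f2: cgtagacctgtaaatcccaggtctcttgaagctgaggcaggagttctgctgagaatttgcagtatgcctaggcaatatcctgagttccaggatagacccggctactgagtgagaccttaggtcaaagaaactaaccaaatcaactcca
Layn: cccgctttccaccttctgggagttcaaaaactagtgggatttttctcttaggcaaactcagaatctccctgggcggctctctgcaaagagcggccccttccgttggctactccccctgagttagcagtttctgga
No capitals appear, since neither motif occurred in the 250 bases before the RefSeq start of any of the 3 genes. Among 32851 windows of that length, 4.84% held TAATTA and 7.17% held TAATTG. Of 170 windows that belong to 142 members, 2.35% and 5.29% did. *Pts* and *Layn* had 61.6% and 61.2% G and C bases and *Slc35f2* 47.6%, beside a median of 60.2% for member windows and 52.4% for all. The absence of these letters says nothing about binding elsewhere.

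**Figure D1:**
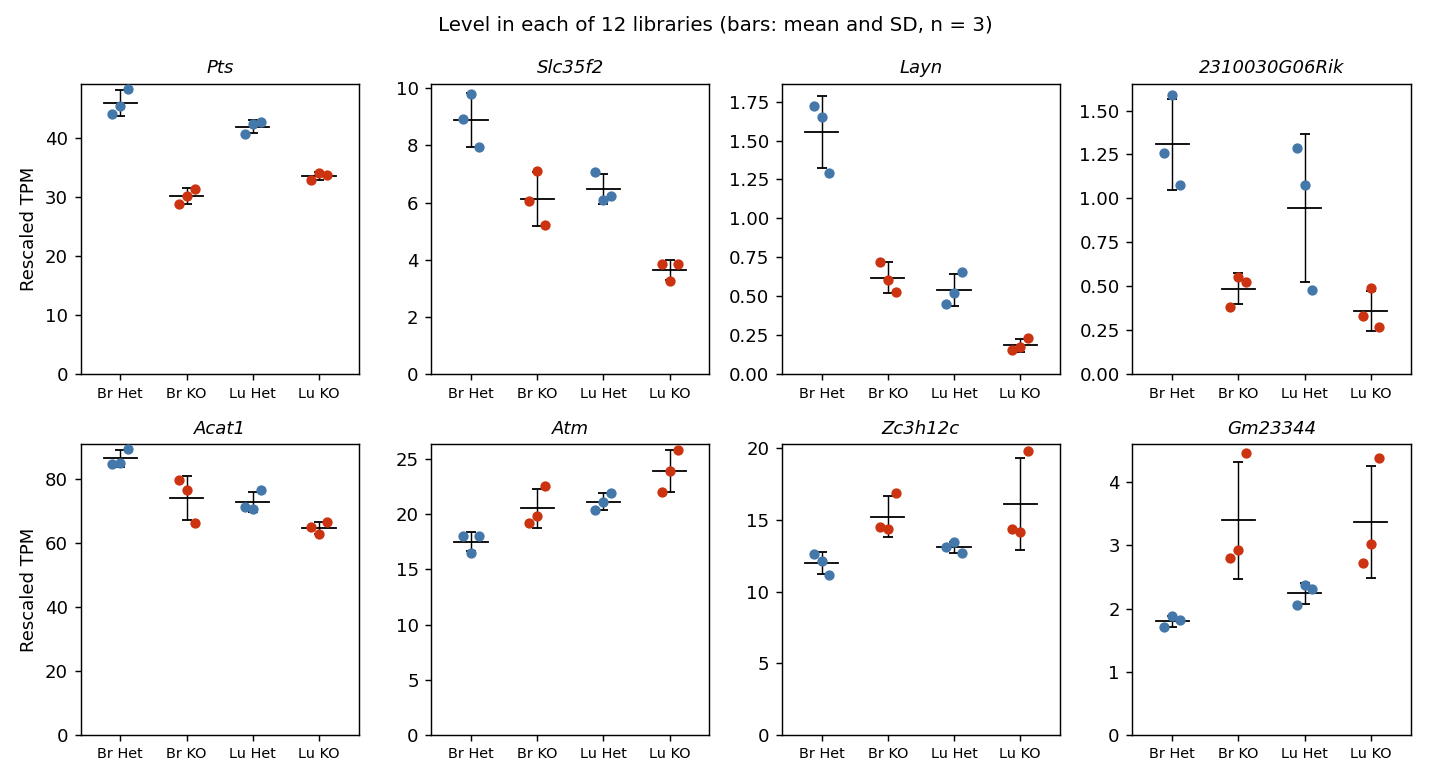
Level of 8 members in each of the 12 libraries. The vertical axes give rescaled TPM from 0, the horizontal axis the group (Br brachial, Lu lumbar), points are libraries, and the bars give the mean and SD of 3. *Pts*, *Slc35f2*, *Layn* and *Acat1* are lower in every KO library than in any heterozygote library of the level, *Atm*, *Zc3h12c* and *Gm23344* are higher, and *2310030G06Rik* overlaps at lumbar level.

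At the brachial level, 9 of the 176 members passed the threshold of the study, a log2 fold change beyond 0.5 with an unadjusted p under 0.05. That is 5.11% of members, beside 3.03% of all genes tested (0.908% lower and 2.12% higher). The 4 lower members were *Pts*, *Slc35f2*, *Layn* and *2310030G06Rik*. The 5 higher members were *Sik3*, *Igdcc3*, *Gm23344*, *Gm39355* and *Gm24646*. *Gm24646* averaged 0.20 TPM in brachial and 0.25 in lumbar heterozygotes and entered the members through its KO groups alone, so that its call partly restates the rule. None had an adjusted p under 0.05 in limma (0.360 for each of the 9), and *Uts2b* alone did among all genes tested. By the unadjusted p alone, 17 members were lower and 20 higher, 21% beside 13.8% of all genes. The split depended on the scaling. With TPM as deposited the threshold called 2 members lower and 16 higher, and the median log2 fold change of all genes moved from −0.01 to 0.16. The deposited TPM of a library includes 5 abundant small RNAs, namely *Rmrp*, *Rpph1*, *Rn7sk* and the pair *Rn7s1* and *Rn7s2*, which took 31.7 to 35.3% of the total in brachial heterozygotes and 23.7 to 31.9% in brachial KO, the least in KO 2. Their part in the split was not tested. The count also rested on single KO libraries. It was 22 members of 1374 among all genes without brachial KO 1 and 5 of 286 without brachial KO 3. Among the 164 members of at least 1 TPM it was 5 (3.05%, beside 2.83%).

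The higher brachial members were small or rare transcripts, with the exception of *Sik3* and *Igdcc3*. *Sik3* encodes a salt-inducible kinase, at chr9:46012820-46224194. It rose from 4.03, 3.96 and 3.76 TPM in heterozygotes to 4.59, 4.98 and 7.62 in KO (log2 fold change 0.50, SE 0.20), with the highest value in KO replicate 3, the library of least depth. *Igdcc3* encodes a neural surface receptor of the immunoglobulin superfamily. It had 2.41, 2.66 and 1.98 TPM in heterozygotes and 2.92, 3.36 and 6.09 in KO (log2 fold change 0.72, SE 0.28), again with KO replicate 3 far above the others. Both calls were lost without brachial KO 3 and without brachial heterozygote 1 or 3, and that of *Sik3* also without heterozygote 2. The lowest log2 fold changes were 0.28 for *Sik3* and 0.41 for *Igdcc3*, each without KO 3. At lumbar level neither gene was called (log2 fold changes 0.08 and 0.29), and their groups overlapped. *Gm39355*, a long non-coding RNA, lies within *Map2k5*, and *Gm24646*, a pseudogene, lies within *Rnf214*, each on the strand of its host. Both averaged under 0.7 TPM, their log2 fold changes were 1.04 (SE 0.39) and 1.88 (SE 0.76), and reads of the host cannot be kept apart from theirs. Both calls were lost without brachial heterozygote 2 or 3 or KO 3, and that of *Gm24646* also without KO 2.

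*Gm23344*, a snoRNA of 0.068 kb inside *Rpl4*, was called higher at both levels. Brachial heterozygotes had 1.71, 1.88 and 1.81 TPM and brachial KO 2.79, 2.93 and 4.46. Lumbar heterozygotes had 2.06, 2.37 and 2.3 TPM and lumbar KO 2.72, 3.02 and 4.38. The groups did not overlap, and the log2 fold change was 0.85 (SE 0.21) at brachial and 0.54 (SE 0.21) at lumbar levels. Its host *Rpl4*, at 848 TPM on the same strand, had −0.15 (SE 0.10) and −0.03 (SE 0.10). The host and the snoRNA share genomic positions, and libraries of this kind measure such short RNAs poorly, so the value of *Gm23344* is uncertain. Its lumbar call was lost without lumbar heterozygote 1, 2 or 3 or lumbar KO 3, with a log2 fold change of 0.34 without the latter.

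*2310030G06Rik*, a protein-coding gene at chr9:50739691-50746527, was the other member called lower at both levels besides *Slc35f2* and *Layn*. Brachial heterozygotes had 1.26, 1.59 and 1.07 TPM and brachial KO 0.38, 0.55 and 0.53. Lumbar heterozygotes had 1.29, 1.08 and 0.48 TPM and lumbar KO 0.33, 0.49 and 0.27. The brachial groups were apart, whereas lumbar heterozygote 3 fell into the range of the lumbar KO. The log2 fold change was −1.26 (SE 0.27) at brachial and −1.12 (SE 0.42) at lumbar levels, and over both levels it did not pass (limma, adjusted p = 0.236). The lumbar call was lost without lumbar heterozygote 1 or 2 or lumbar KO 1 or 3. With 0.49 and 0.36 TPM on average in brachial and lumbar KO, the gene entered the members through the heterozygotes. *Cryab*, which overlaps it on the opposite strand, averaged 0.082 TPM.

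At the lumbar level, 7 members passed the same threshold, 3.98% beside 1.77% of all genes tested (0.807% lower and 0.968% higher). *Slc35f2*, *Layn*, *2310030G06Rik*, *Tnfaip8l3* and *Calml4* were lower, and *Gm23344* and *Rec114* higher. The adjusted test of limma called 0 genes of the transcriptome at this level (smallest adjusted p = 0.0868, *Uts2b*). By the unadjusted p alone, 12 members were lower and 3 higher, 8.52% beside 4.83% of all genes. Without lumbar heterozygote 2, 4 members were called (2.27%, beside 2.03% of all genes), and 4 with embryo sex as a term (2.27%, beside 2.52%). Among the 164 members of at least 1 TPM there were 3 (1.83%, beside 1.47%). *Tnfaip8l3*, a gene of phosphoinositide signalling, had 0.89, 1.27 and 0.86 TPM in heterozygotes and 0.53, 0.30 and 0.78 in KO (log2 fold change −0.85, SE 0.37). The call was lost without lumbar heterozygote 1, 2 or 3 or lumbar KO 1 or 2, with a log2 fold change of −0.54 without the latter. At brachial level it had −0.19 (SE 0.24) with overlapping groups. *Calml4*, a calmodulin-like gene, had 1.35, 2.31 and 1.90 TPM and 0.96, 1.41 and 0.54 in KO (log2 fold change −0.92, SE 0.36), with 1 KO library above the lowest heterozygote. This call was lost without lumbar heterozygote 2 or 3 or lumbar KO 1 or 3, with a log2 fold change of −0.60 without the latter. *Rec114*, a gene of meiotic recombination, had 0.14, 0.04 and 0.38 TPM in heterozygotes and 1.03, 1.05 and 0.75 in KO (log2 fold change 2.01, SE 0.49). At brachial level it showed 0.09 (SE 0.53). *Nptn*, at 79.1 TPM, overlaps the end of *Rec114* on the opposite strand, and its part in the *Rec114* values was not tested.

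Across the 2 levels, 3 members (*Slc35f2*, *Layn* and *2310030G06Rik*) passed the threshold downward in both and 1 (*Gm23344*) upward in both. For each of the 4, the call at one level was lost without single libraries, for *Slc35f2* without brachial heterozygote 2 or KO 3 and for *Layn* without lumbar heterozygote 3. This is 2.27% of members, beside 0.173% of all genes tested (0.0717% lower and 0.102% higher). *Layn* and *2310030G06Rik* passed the level filter through the heterozygotes, and among the 164 members of at least 1 TPM the share was 1.22%, with 1 lower and 1 higher. The brachial and lumbar libraries are separate, but some may share embryos. A further description, free of any fold threshold, is whether all KO libraries of a level lie on one side of all heterozygote libraries. An exact permutation test of 3 against 3 libraries cannot go below p = 0.1, so such a separation is a description of the order of 6 values.

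At the brachial level 26 members were separated downward and 27 upward, 30.1% beside 20.1% of all genes tested (10.4% lower and 9.71% higher). At the lumbar level 17 were separated downward and 12 upward, 16.5% beside 9.91% (5.5% lower and 4.4% higher). In the same direction at both levels stood 11 members, 6 lower and 5 higher. This was 6.25% of members, beside 2.06% of all genes tested (1.3% lower and 0.759% higher), 2.01% of genes on other chromosomes and 3.80% of the 158 chromosome 9 genes at 10 to 20 Mb. No member was separated in opposite directions, which 0.203% of all genes were. The lower members were *Pts*, *Layn*, *Slc35f2*, *Acat1*, *Hexa* and *2300009A05Rik*, and the higher ones *Atm*, *Zc3h12c*, *Nkapd1*, *Etfa* and *Gm23344*.

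Among them, *Acat1* and *Atm*, which lie on either side of *Npat*, differed in opposite directions. *Acat1* encodes the mitochondrial acetyl-CoA acetyltransferase of ketone body and isoleucine metabolism (chr9:53580522-53610350). It had 84.7, 85.3 and 89.6 TPM in brachial heterozygotes and 79.7, 76.6 and 66.3 in brachial KO. At lumbar level it had 71.2, 70.9 and 76.7 TPM and 65.3, 62.8 and 66.6. *Atm* encodes the kinase that senses DNA double-strand breaks (chr9:53437122-53536828). It had 18.1, 16.5 and 18.0 TPM in brachial heterozygotes and 19.2, 19.8 and 22.5 in brachial KO. At lumbar level it had 20.4, 21.2 and 21.9 TPM and 22.1, 23.9 and 25.9. The separations were narrow in both genes, with log2 fold changes over both levels of −0.20 (SE 0.05) and 0.20 (SE 0.06), and neither passed adjustment (limma, adjusted p = 0.293 for each).

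*Zc3h12c*, of the Regnase family of RNA-degrading proteins, had 12.6, 12.1 and 11.1 TPM in brachial heterozygotes and 14.5, 14.3 and 16.9 in brachial KO. At lumbar level it had 13.1, 13.5 and 12.7 TPM and 14.4, 14.1 and 19.8. Its log2 fold change over both levels was 0.31 (SE 0.09). *Hexa*, the α subunit of lysosomal β-hexosaminidase, had −0.16 (SE 0.06), *2300009A05Rik* −0.30 (SE 0.10), and *Nkapd1* 0.23 (SE 0.08). Of the 10 members of smallest p over both levels, those not yet described were *Stoml1*, a stomatin-like gene, with −0.16 (SE 0.05), and *Sdhd*, a subunit of succinate dehydrogenase, with −0.21 (SE 0.07). None of these 6 had an adjusted p under 0.05 in limma. By the unadjusted p, 23 members were lower and 13 higher over both levels, 20.5% beside 14% of all genes tested and 20.3% of the 158 genes at 10 to 20 Mb.

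**Figure D2:**
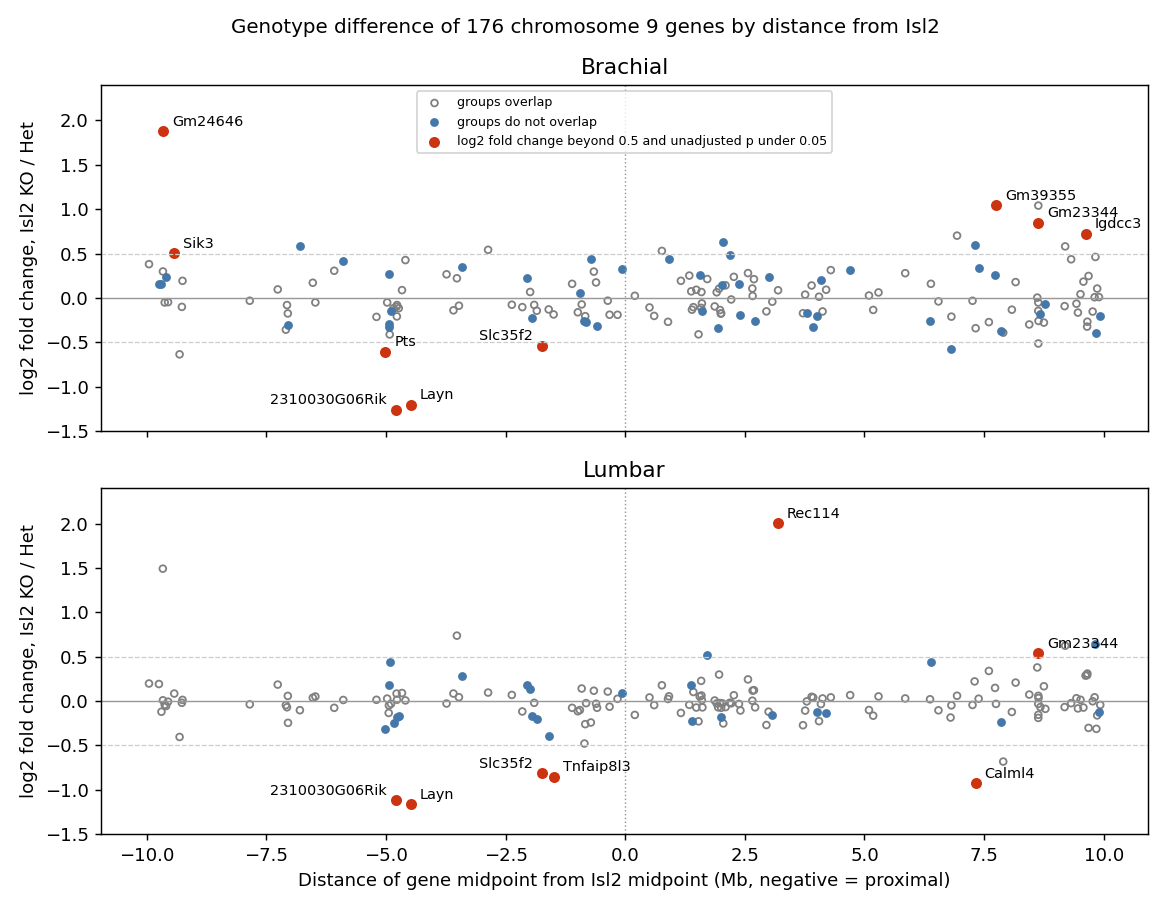
Genotype difference of each member by its distance from *Isl2*. The vertical axes give the log2 fold change of KO over heterozygote at brachial (upper) and lumbar (lower) levels, the horizontal axis the distance in Mb, red points the members past the threshold, filled blue points other members whose groups do not overlap, and dashed lines a log2 fold change of 0.5 either way. The members past the threshold downward at both levels, *Slc35f2*, *Layn* and *2310030G06Rik*, lie on the proximal side between 1.75 and 4.80 Mb.

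Among the 20 members within 1 Mb of *Isl2*, none passed the threshold at either level. At brachial level 35% of them had an unadjusted p under 0.05 in limma and 35% were separated, beside 13.8% and 20.1% of all genes tested. At lumbar level these shares were 0% and 5%, beside 4.83% and 9.91%. Their median size of the log2 fold change was 0.20 at brachial and 0.10 at lumbar level, beside 0.19 and 0.09 for all members and 0.17 and 0.10 for all genes tested. Across the 176 members, Spearman's correlation of distance with the size of the log2 fold change was 0.12 at brachial, 0.03 at lumbar and 0.03 over both levels, a description over genes that share the same libraries. The neighbours on either side of *Isl2* were *Etfa* and *Scaper*. *Etfa*, the α subunit of the electron transfer flavoprotein of mitochondria, lies 0.060 Mb away. It had 14.5, 17.4 and 16.7 TPM in brachial heterozygotes and 18.6, 20.7 and 21.8 in brachial KO (log2 fold change 0.33, SE 0.10). At lumbar level it had 16.0, 16.8 and 16.9 TPM and 17.1, 18.9 and 17.1 (0.09, SE 0.08), so that the groups were separated by a small margin only. *Scaper*, on the distal side, had log2 fold changes of 0.02 (SE 0.08) and −0.16 (SE 0.10) with overlapping groups.

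Other near neighbours were separated at brachial level alone or not at all. *Psma4* (−0.31 and −0.08), *Wdr61* (−0.27 and −0.02) and *Rab7-ps1* (0.44 and −0.24) were separated at brachial level and overlapped at lumbar level, as did *Idh3a* (0.05 and −0.10) and *Gm7368* (−0.26 and −0.48). A further 12, *Cib2*, *Acsbg1*, *Dnaja4*, *Ireb2*, *Hykk*, *Ube2q2*, *Fbxo22*, *Tmem266*, *Rcn2*, *Tspan3*, *Peak1* and *Gm2296*, overlapped at both levels, with brachial log2 fold changes from −0.27 to 0.53 and lumbar ones from −0.26 to 0.18.

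The proximal side held more of the differences than the distal side. Of 71 proximal members, 8.45% passed the brachial and 5.63% the lumbar threshold, and 11.3% were separated in the same direction at both levels. Of 105 distal members these shares were each 2.86%, and of all genes tested they were 3.03%, 1.77% and 2.06%. The proximal calls include *Layn* and *2310030G06Rik*, which entered the members through the heterozygotes, and *Gm24646*, which entered through its KO groups. The proximal threshold shares thus partly restate the rule, and the sides were not compared among members of at least 1 TPM. The 11 members at 1 to 2.5 Mb proximal, from the *Atm* and *Acat1* neighbourhood to *Slc35f2* and *Tnfaip8l3*, had the highest shares of the bins at lumbar level and at both levels, with 63.6% and 27.3% separated. At brachial level 27.3% of them were separated, fewer than the 42.9% of the 14 members within 1 Mb proximal. Among the 21 at 2.5 to 5 Mb proximal, 33.3% were separated at lumbar level and 14.3% at both. At 5 to 10 Mb proximal, which still holds *Pts* at 5.02 Mb, the same shares were 4% of 25 in each case. Bins of 6 to 50 genes are small, neighbours share libraries, and the difference between the sides was not tested.

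**Figure D3:**
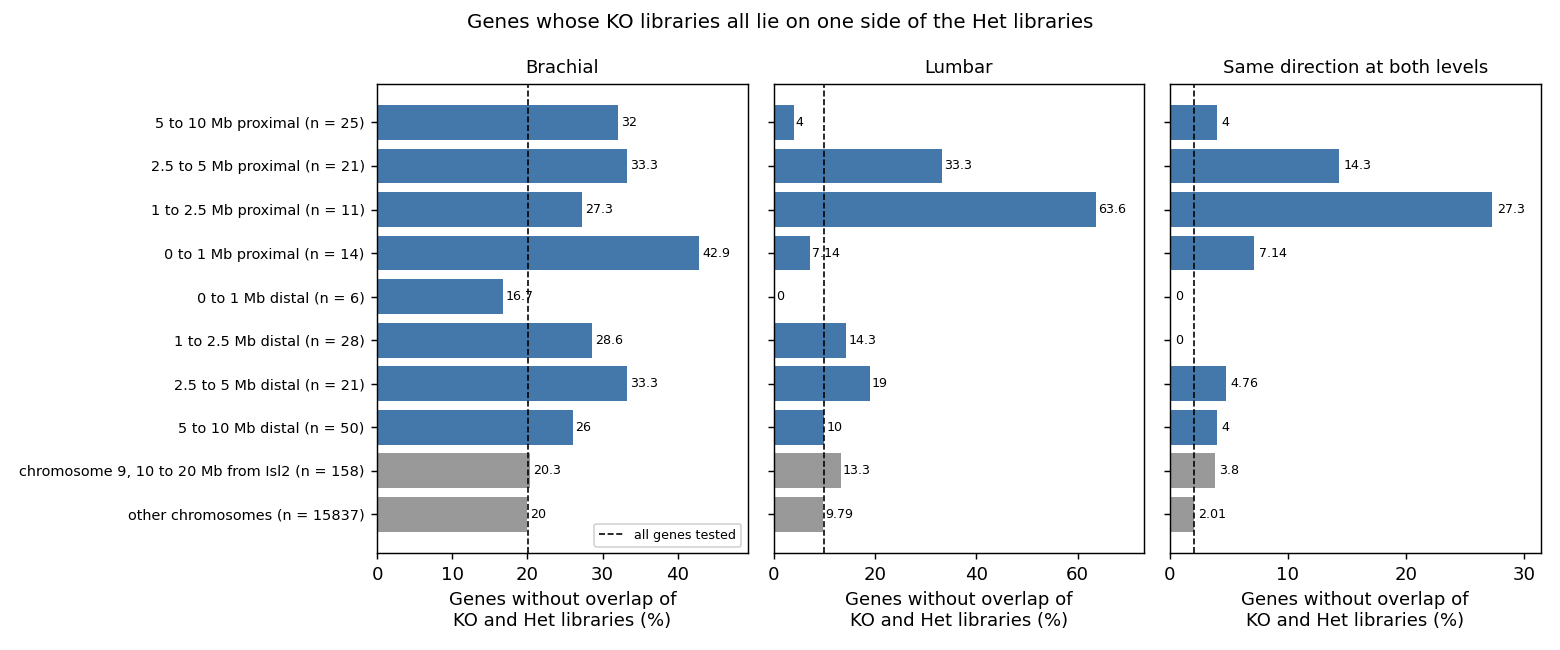
Share of genes whose KO libraries all lie on one side of the heterozygote libraries, by distance bin. The horizontal axes give the percentage from 0 at brachial level, at lumbar level, and in the same direction at both levels, blue bars are members, grey bars are chromosome 9 genes at 10 to 20 Mb and genes on other chromosomes, and the dashed line marks all genes tested. The bin at 1 to 2.5 Mb proximal reaches 63.6% at lumbar level and 27.3% at both.

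Brachial differences moved with the genomic span of a gene. Among the 153 protein-coding members, Spearman's correlation of span with the brachial log2 fold change was 0.50. Over all 13288 protein-coding genes tested it was 0.40. The median brachial log2 fold change was −0.23 for the 28 members under 10 kb and 0.29 for the 22 members over 100 kb, beside −0.12 and 0.16 for all protein-coding genes. At lumbar level the correlation of span was 0.27 among the members and 0.07 over all genes. *Pts* spans 7.10 kb and *2310030G06Rik* 6.84 kb, *Slc35f2* 46.7 kb and *Layn* 22.2 kb, *Sik3* 211 kb. The part of span in the brachial differences was not tested.

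**Figure D4:**
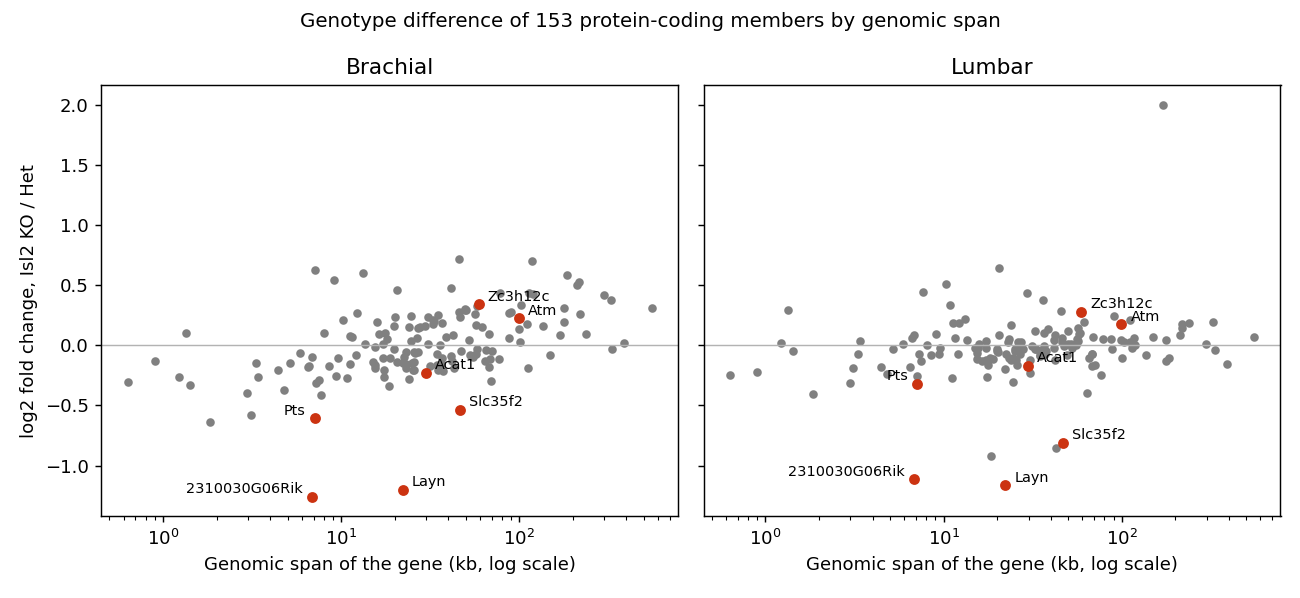
Genotype difference of the 153 protein-coding members by genomic span. The vertical axis gives the log2 fold change of KO over heterozygote at brachial (left) and lumbar (right) levels, the horizontal axis the span in kb on a log scale, and red points are named members. Long genes sit higher than short ones at brachial level (Spearman's correlation 0.50) and less so at lumbar level (0.27), and *Layn*, *2310030G06Rik* and *Slc35f2* lie at the lower edge in both.

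By role, the members were counted in 6 lists that together held 119 of the 176. These lists were written with earlier results known, and their calls stand beside 3.03% of all genes tested called at brachial and 1.77% at lumbar level. Among 15 neuronal adhesion, guidance and surface receptor genes, *Layn* was called lower and *Igdcc3* higher at brachial level, and *Layn* lower at lumbar level. The median log2 fold change of this list was 0.19 at brachial and −0.04 at lumbar level, beside −0.01 for all genes at each. *Ncam1*, the neural cell adhesion molecule, averaged 156 TPM and was separated upward at brachial level (0.42, SE 0.14), but not at lumbar level (0.01, SE 0.13). *Tspan3* showed −0.20 (SE 0.09) and −0.05 (SE 0.07).

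Among 18 mitochondrial and metabolic enzymes, *Pts* was called lower at brachial level and none was called at lumbar level. The list had a median of −0.14 at brachial and −0.03 at lumbar level, and 2 members were separated downward at both levels (*Pts*, *Acat1*) and 1 upward (*Etfa*), 16.7% beside 2.06% of all genes tested. *Pkm* had −0.15 (SE 0.11) and 0.03 (SE 0.12), and *Cox5a* −0.14 (SE 0.08) and −0.02 (SE 0.07). Of 21 kinases and signal transducers, *Sik3* was called higher at brachial level and none at lumbar level, with medians of 0.18 and 0.04. *Rdx*, which encodes radixin, a linker of membrane and actin, had −0.09 (SE 0.08) and 0.04 (SE 0.08), and the splicing kinase gene *Clk3* −0.02 (SE 0.07) at both.

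None of the 17 genes of transcription, chromatin and genome maintenance passed the threshold at either level (medians 0.17 and 0.05). *Parp6*, a mono-ADP-ribosyltransferase gene, was separated upward at brachial level (0.21, SE 0.07) with −0.03 (SE 0.07) at lumbar level. *Tipin*, of the replication fork, had −0.28 (SE 0.17) and 0.17 (SE 0.17). None of the 14 genes of the ribosome and RNA processing passed either (medians −0.09 and −0.02), and *Rplp1* had −0.26 (SE 0.09) and 0.02 (SE 0.11). Of 34 genes listed under trafficking, lysosome and protein turnover, *Slc35f2* alone was called, lower at both levels (medians −0.06 and −0.06). *Slc35f2* encodes a membrane transporter, and without it this list held no call. The log2 fold change was negative in 21 of the 34 at brachial and 28 at lumbar level, beside 8682 and 8816 of the 16736 genes tested. *Pafah1b2*, a subunit of platelet-activating factor acetylhydrolase, had −0.05 (SE 0.07) and −0.01 (SE 0.08). The 57 members in no list held 4 brachial and 5 lumbar calls, 7.02% and 8.77% beside 3.03% and 1.77% of all genes tested.

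More members were called by axial level than by genotype over both levels, though at a share near that of all genes tested. Over all 12 libraries, with genotype as a covariate, 22 members were lower and 14 higher at lumbar than at brachial level at an adjusted p under 0.05 in limma, 20.5% beside 18.5% of all genes tested (9.65% lower and 8.88% higher). With TPM as deposited the split was 30 lower and 6 higher, and the median of all genes moved from 0.01 to −0.13. Without brachial heterozygote 2, 23 members were called (13.1%, beside 12.4% of all genes). The lower members of smallest p were led by *Layn*, which averaged 1.09 ± 0.54 TPM (SD, n = 6) at brachial and 0.363 ± 0.207 at lumbar level. Its log2 fold change was −1.35 (SE 0.18). At 0.363 TPM in lumbar cord, *Layn* entered the members through the brachial libraries, so that this call too partly restates the rule. *Tnfaip8l3* fell from 1.98 ± 0.36 to 0.772 ± 0.333 TPM and *Slc35f2* from 7.50 ± 1.74 to 5.06 ± 1.60 TPM.

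*Insyn1*, a gene of inhibitory synapses, fell from 30.7 ± 5.2 TPM at brachial to 17.3 ± 2.5 at lumbar level (log2 fold change −0.82, SE 0.11). *Larp6*, an RNA-binding protein gene, fell from 9.43 ± 1.41 to 5.37 ± 0.99 TPM. *Arhgap20*, a GTPase-activating protein gene, fell from 14.5 ± 2.1 to 9.18 ± 1.20 TPM. *Cib2*, a calcium-binding protein gene, had a log2 fold change of −0.38 (SE 0.05) and *Nptn*, neuroplastin of the synapse, −0.28 (SE 0.05). None of these 5 passed the genotype threshold at either level.

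Among the members higher at lumbar level, *Zwilch*, of the kinetochore, rose from 3.52 ± 0.58 TPM at brachial to 5.97 ± 1.19 at lumbar level (log2 fold change 0.74, SE 0.14). *Kif23*, a kinesin of cytokinesis, rose from 7.77 ± 1.92 to 11.96 ± 2.47 TPM and *Tipin* from 27.6 ± 5.1 to 42.4 ± 7.8. *Zw10*, the kinetochore partner of *Zwilch*, had a log2 fold change of 0.24 (SE 0.05). *Atm* had 0.25 (SE 0.06), *Ints14*, of the Integrator complex, 0.33 (SE 0.06), *1600029O15Rik* 0.57 (SE 0.11) and the small RNA *Gm22571* 0.64 (SE 0.15). In the list of genome maintenance genes 4 of 17 were higher at lumbar level and none lower (23.5%), and in the list of adhesion and receptor genes 1 of 15 was higher and 6 were lower (46.7%), beside 18.5% of all genes tested. Summed markers of progenitors were 233 to 324 TPM over the brachial and 337 to 427 over the lumbar libraries. *Nes* made up most of this sum, with 132 to 186 TPM at brachial and 193 to 260 at lumbar level. *Olig2* ran the other way, with 2.94 to 5.63 and 2.12 to 3.07 TPM. The ranges of *Sox2*, *Pax6*, *Nkx2-2* and *Mki67* overlapped between the levels. Summed MN markers without *Prph* also overlapped between the levels, as given above. The part of these proportions in the differences by level was not tested.

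**Figure D5:**
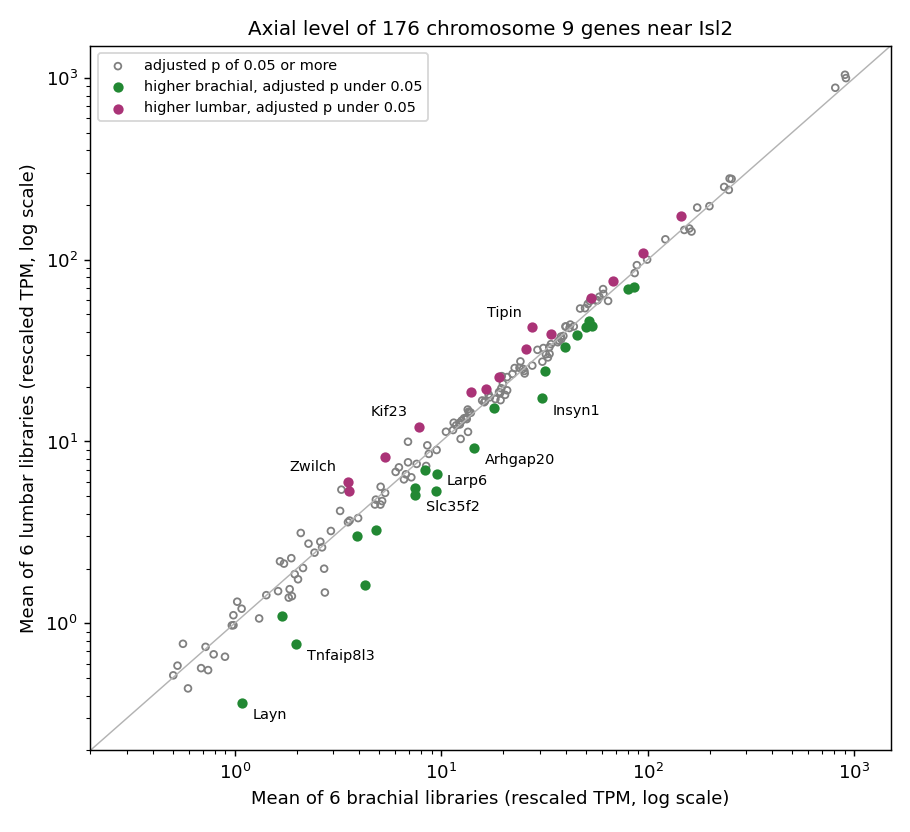
Level of the 176 members in brachial and lumbar cord. Both axes give the mean of 6 libraries in rescaled TPM on a log scale, green points are higher at brachial and purple points higher at lumbar level at an adjusted p under 0.05, open points are other members, and the line marks equal levels. *Layn* and *Tnfaip8l3* lie farthest below the line among the named members, and *Zwilch*, *Tipin* and *Kif23* above it.

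The genotype difference itself was not shown to depend on level for any member. The interaction term of level and genotype gave 0 of 176 members, and 0% of all genes tested, an adjusted p under 0.05 in limma. By the unadjusted p, 12 members were under 0.05, 6 with a lower and 6 with a higher lumbar than brachial effect, 6.82% beside 4.42% of all genes. *Pts* and *Rec114* were among them, the latter with an interaction of 1.92 on the log2 scale (unadjusted p = 0.0263).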

How the data were processed

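RNA was measured in 12 libraries of E12.5 ventral spinal cord, 3 per group, with level, genotype and replicate number read from the labels. Per the labels and the paper, the authors prepared stranded total RNA libraries, removed adapters using Trimmomatic 0.38, aligned to mm10 (HISAT2 2.1.0, Bowtie2 2.3.4.1) and estimated gene levels by StringTie 2.1.3b. The deposited TPM values were scaled by the authors to a fixed total per library. The deposited FPKM values came from the same run, scaled to gene length and library size. The deposited coverage signal is the average number of reads over each base. Counts were not used here, so no count model or DESeq2 alternative was run. How reads shared by overlapping genes were divided is not given in the sources used here.

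The tables name genes by NCBI identifier. Symbols and types came from RefSeq GRCm38.p6, which held 45679 of 45777 identifiers and all 176 members, 170 of them with the coordinates of the tables. The ratio of coverage to FPKM in single-transcript genes gave the aligned bases. These units do not give the reads behind a gene, so values of single libraries carry no interval.

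For the fits, each library's TPM was divided by a median-of-ratios size factor and transformed to log2(TPM + 0.1). The 16736 genes averaging 0.5 TPM or more entered lmFit and eBayes (with a trend) of limma 3.58.1, run under R 4.3.3. Genotypes were compared within each level (6 libraries), over both levels with level as a covariate (12 libraries), and by the interaction, and levels with genotype as a covariate. Calls within a level used the threshold of the study, and other calls a Benjamini-Hochberg adjusted p under 0.05 over all genes tested. The fit was tested on simulated data. Named genes are members within 1 Mb, members past the threshold at either level, the 10 of smallest p over both levels, the 8 of smallest p per direction by axial level, the 2 of highest level per role list, and the genes at the limits of the rule. A gene that this rule names within 1 Mb is not reported here. The members separated at both levels and other near examples were chosen after their values were seen. The members, role lists and marker lists were chosen with earlier results of these data known. Of the marker lists, ventral interneurons and sensory ganglia had 1 gene called higher each at brachial level, erythroid cells 1 higher and MNs 1 lower at lumbar level. The lists of dorsal interneurons, progenitors, floor plate, mesenchyme and cartilage, skeletal muscle, Schwann cells and crest, endothelium and microglia had 0 called. Embryo sex was read from *Xist* and Y-linked genes. Same-numbered heterozygote and KO libraries correlated in their deviations by 0.08, 0.23 and 0.01 at brachial and 0.14, −0.21 and −0.09 at lumbar level, so the numbers were not taken as pairs. Alternatives covered the pseudocount, the filter, the scaling, coverage in place of TPM, the trend, single libraries, embryo sex, the window and the replicate number. Tables were handled with Python 3.11.15 and pandas 2.3.3 and plotted with matplotlib 3.10.9.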

Additional observations from a re-analysis of the deposited data

How the results depend on the processing

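None of the 42 differences of named genes recomputed changed direction in any setting tried. Against 9 members called at brachial level, a filter at mean TPM 1 gave 5, a window of 5 Mb 3 and TPM as deposited 18. Against 7 at lumbar level, a pseudocount of 1 gave 3, a filter at TPM 1 gave 3 and embryo sex as a term 4. Against 3 over both levels, a pseudocount of 0.01, a filter at TPM 1 and a fit without the trend gave 1 each. TPM as deposited and same-numbered libraries averaged gave 0 there. These are counts, and the genes behind them may differ between settings. By axial level 36 members were called, and 68 in a window of 20 Mb, which holds more genes. Leaving out single libraries gave 5 to 22 members at brachial level (lowest without KO 3, highest without KO 1), 4 to 7 at lumbar level (lowest without heterozygote 2), 0 to 2 over both levels and 23 to 44 by axial level. The interaction gave 0 members in every setting. Apart from the settings that drop genes or libraries, the cause of these shifts was not tested. For the named genes, 729 of 844 values kept their side of the threshold and 115 lost it.

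With the replicate number as a block, 8 members were called at brachial level, 6 at lumbar level, 0 over both levels, 29 by axial level and 0 for the interaction. The samples share only a number: embryo sex differed between same-numbered brachial and lumbar libraries in 3 of 6 cases, and in neither level did every library correlate best with its own number.

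Rare transcripts such as *Layn*, *2310030G06Rik* and *Rec114*, near or under 1 TPM, set the limit of what these depths show.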
